A study of Saccharomyces cerevisiae with 12 samples.

Results

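Intergenic regions at 4 places of the budding yeast genome, and the 8 genes beside them, are described here because of how far their Top2-linked breaks rose under VP16. They were 4 of the 5609 intergenic regions measured, out of 11306 regions in all with the reading frames (ORFs). The first, YNL050C/SFB2, spans 534983 to 535280 of chromosome XIV, and BET4/MAD2 spans 387439 to 387656 of chromosome X. RIC1/AFB1 spans 228597 to 228907 of chromosome XII, and HEM25/CYK3 spans 247613 to 248580 of chromosome IV. They were selected on measured values of these same libraries, as loci with the steepest rise of hits from untreated to VP16-treated cells. The change under VP16 is therefore given as a description, without a test. YNL050C/SFB2, BET4/MAD2 and RIC1/AFB1 ranked 1, 2 and 3 of 11297 regions by log2 change, whereas HEM25/CYK3 ranked 304, so that "steepest rise" described the other 3 regions only.

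In CC-seq, DNA fragments that carry a covalently attached protein at an end are enriched and sequenced, and each hit is the 5′ terminal nucleotide of such an end, assigned to the Watson or the Crick strand. The strains were of the BY4741 background and all carried, in place of PDR1, a fusion of the Pdr1 DNA-binding domain to the repressor Cyc8 (pdr1DBD-CYC8), which lowers the expression of drug exporters. They lacked SAE2 (pdr1sae2) or MRE11 (pdr1mre11), or were otherwise unmodified in the genes studied (pdr1). Vegetatively growing cells were treated for 4 h with 1 mM VP16, or were left untreated per the labels (DMSO in its place, per the methods), in 2 biological replicates per group and 12 libraries in all. Each library held between 685100 and 3463679 nuclear hits, and values scaled to that total are given as HpM (hits per 1000000 nuclear hits). In an inner part of the reading frames of the deleted genes, SAE2 held 0 to 4 hits in the 4 pdr1sae2 libraries against 14 to 93 in the 8 others, and MRE11 held 0 to 3 in the 4 pdr1mre11 libraries against 30 to 112 in the 8 others. The pdr1sae2 VP16 replicate 1 stood apart among treated libraries, with the smallest total (1073764) and the lowest share of hits with C before the cleaved bond (46.4%, against 51.4% to 65.6% in the other 5 treated libraries and 21.6% to 23.0% in the untreated ones).

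Top2 relaxes and untangles DNA by cutting both strands of a duplex and passing another duplex through the gap. While the strands are open, a tyrosine of each Top2 subunit is covalently joined to the 5′ end on its strand, and the cuts are staggered so that a 4-base overhang separates them. VP16 (etoposide) binds in the cut and prevents resealing, which holds the enzyme in this cleavage complex. The nuclease Mre11 and its cofactor Sae2 can cleave proteins off DNA ends. A double-strand complex leaves a Watson hit and a Crick hit 3 bp further on, and such a pair of positions is called a site here and is given by its Watson position.

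The sequences at the strongest sites carry most of what follows, so 11 of the 12 listed sites (the 3 with the highest HpM under VP16 in each region) are shown, 5′ to 3′ on the Watson strand, from the RefSeq R64 assembly. The capitals mark 6 bases, which are the base before the cleaved Watson bond, the 4 bases of the overhang and the base after it. That last base faces the base before the cleaved Crick bond, so that G there places C before the Crick bond. The remaining site, RIC1/AFB1 site 3, lies 1 bp from site 1 and held only 4 to 8 hits per treated library.
YNL050C/SFB2 site 1, chrXIV:535085-535120: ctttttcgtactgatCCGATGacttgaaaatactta
YNL050C/SFB2 site 2, chrXIV:535041-535076: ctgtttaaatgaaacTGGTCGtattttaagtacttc
YNL050C/SFB2 site 3, chrXIV:535037-535072: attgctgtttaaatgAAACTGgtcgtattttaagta
BET4/MAD2 site 1, chrX:387526-387561: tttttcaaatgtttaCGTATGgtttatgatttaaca
BET4/MAD2 site 2, chrX:387597-387632: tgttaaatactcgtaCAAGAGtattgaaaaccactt
BET4/MAD2 site 3, chrX:387522-387557: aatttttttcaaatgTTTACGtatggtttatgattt
RIC1/AFB1 site 1, chrXII:228588-228623: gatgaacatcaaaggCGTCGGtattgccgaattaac
RIC1/AFB1 site 2, chrXII:228625-228660: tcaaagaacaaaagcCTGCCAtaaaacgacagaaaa
HEM25/CYK3 site 1, chrIV:248116-248151: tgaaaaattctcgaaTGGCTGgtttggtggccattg
HEM25/CYK3 site 2, chrIV:248072-248107: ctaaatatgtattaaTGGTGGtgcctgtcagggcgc
HEM25/CYK3 site 3, chrIV:247688-247723: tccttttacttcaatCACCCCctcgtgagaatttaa

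Of the 4 first sites, 3 held the palindromic pattern CNNNNG in the capitals, with C before the bond on both strands. The exception was HEM25/CYK3 site 1, with T before the Watson bond and C before the Crick bond. Each of the 31 sites listed in the 4 regions lay in a 40-bp sequence that occurred 1 time in the genome as an exact match. Copies with mismatches were not searched for.

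The whole BET4/MAD2 region, which reaches from one start codon to the other, shows where its sites lie, with the capitals of sites 3 and 1 (overlapping) and of site 2.
BET4/MAD2 region, chrX:387439-387656: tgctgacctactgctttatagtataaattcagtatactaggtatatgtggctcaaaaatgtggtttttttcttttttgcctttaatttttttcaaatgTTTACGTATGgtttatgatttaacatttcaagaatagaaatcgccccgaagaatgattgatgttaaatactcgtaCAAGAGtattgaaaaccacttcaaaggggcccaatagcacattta

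The whole YNL050C/SFB2 region is shown in the same way, with sites 3 and 2 (overlapping) to the left of site 1.
YNL050C/SFB2 region, chrXIV:534983-535280: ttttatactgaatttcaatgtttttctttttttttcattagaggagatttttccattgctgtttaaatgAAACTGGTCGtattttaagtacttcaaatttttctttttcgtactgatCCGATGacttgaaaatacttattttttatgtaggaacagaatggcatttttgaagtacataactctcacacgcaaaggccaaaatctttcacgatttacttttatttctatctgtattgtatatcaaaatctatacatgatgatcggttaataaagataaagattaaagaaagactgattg

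Both YNL050C and SFB2 are transcribed from the Crick strand, so that this region lies before the start of YNL050C (534079 to 534982, a protein of unknown function) and after the end of SFB2 (535281 to 537911, a Sec24-like component of the COPII vesicle coat). It held 180 and 527 hits in pdr1sae2, 564 and 543 in pdr1mre11 and 612 and 357 in pdr1 under VP16, against 88 and 28, 114 and 35, and 77 and 20 hits in the untreated libraries of the same strains. In HpM, VP16 libraries held 167.6 and 222.2 (pdr1sae2), 227.3 and 184.2 (pdr1mre11) and 280.4 and 221.0 (pdr1), against 34.0 and 29.0, 32.9 and 34.2, and 29.8 and 29.2 in untreated ones. The lowest treated library thus lay far above the highest untreated one, and untreated libraries hardly differed from each other. The log2 change was 2.72 ± 0.12 (SE, edgeR, all 12 libraries).

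BET4, the alpha subunit of the geranylgeranyl transferase that attaches lipid anchors to Rab GTPases, and MAD2, a component of the spindle assembly checkpoint, are transcribed away from each other, and the 218 bp between them hold both starts. The region held 141 and 323 hits in pdr1sae2, 467 and 402 in pdr1mre11 and 457 and 188 in pdr1 under VP16, against 73 and 25, 83 and 20, and 53 and 11 in the untreated libraries. In HpM these were 131.3 and 136.2 (pdr1sae2), 188.2 and 136.4 (pdr1mre11) and 209.4 and 116.4 (pdr1) under VP16, against 28.2 and 25.9, 24.0 and 19.5, and 20.5 and 16.1 in untreated cells. The groups did not overlap. The log2 change was 2.68 ± 0.15.

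RIC1 encodes a subunit of the Ric1-Rgp1 complex, which activates the Golgi GTPase Ypt6, and AFB1 a secreted protein that sequesters the mating pheromone a-factor. Both lie on the Crick strand, so the region precedes RIC1 (225426 to 228596) and follows AFB1 (228908 to 229582). It held 269 and 472 hits in pdr1sae2, 346 and 561 in pdr1mre11 and 543 and 336 in pdr1 under VP16, against 73 and 30, 124 and 33, and 76 and 26 in untreated libraries. In HpM, the treated libraries held 250.5 and 199.0 (pdr1sae2), 139.5 and 190.3 (pdr1mre11) and 248.8 and 208.0 (pdr1), against 28.2 and 31.1, 35.8 and 32.3, and 29.4 and 38.0 in the untreated ones. The pdr1mre11 replicates were the lowest of the treated libraries, still well above every untreated library. The log2 change was 2.61 ± 0.13.

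HEM25, a mitochondrial carrier that imports glycine for haem synthesis, and CYK3, a protein of the cytokinesis machinery, are transcribed away from each other across 968 bp. Under VP16 this region held 341 and 493 hits in pdr1sae2, 635 and 677 in pdr1mre11 and 672 and 340 in pdr1, against 230 and 90, 405 and 101, and 244 and 57 in untreated cells. In HpM the values were 317.6 and 207.9, 256.0 and 229.7, and 307.9 and 210.5 under VP16, against 89.0 and 93.2, 116.9 and 98.7, and 94.4 and 83.2 in untreated cells, in the same order of strains. The groups did not overlap. The log2 change of 1.34 ± 0.11 was smaller than at the other regions. Per kb, this region averaged 263.3 ± 49.7 HpM under VP16 (SD, n = 6), against 701.8 ± 169 at BET4/MAD2, 662.5 ± 133 at RIC1/AFB1 and 728.7 ± 132 at YNL050C/SFB2.

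All 4 regions were among the 34.4% of 11297 regions that rose past an adjusted p of 0.05 under VP16 in edgeR's quasi-likelihood test, and 33.3% fell. With libraries scaled by the spike-in of human DNA, 10805 rose and 8 fell. Since this contrast chose the 4 regions, nothing is read from that count, nor from the lack of overlap between their treated and untreated libraries. Ranked just below RIC1/AFB1 (2.61) were the regions BNA5/EST1 (log2 change 2.52 ± 0.13), ATG17/SPP382 (2.51 ± 0.16) and LOG1/TIM54 (2.50 ± 0.15), so that no gap in the ranking set the top 3 apart. The log2 HpM of BNA5/EST1, of the GLC7 reading frame (log2 change 0.84 ± 0.08) and of CBP6/GRS1 (1.95 ± 0.11) followed the mean of the 4 regions most closely over the 12 libraries (Pearson's r = 0.993 for each, across libraries that share treatment and depth).

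**Figure D1:**
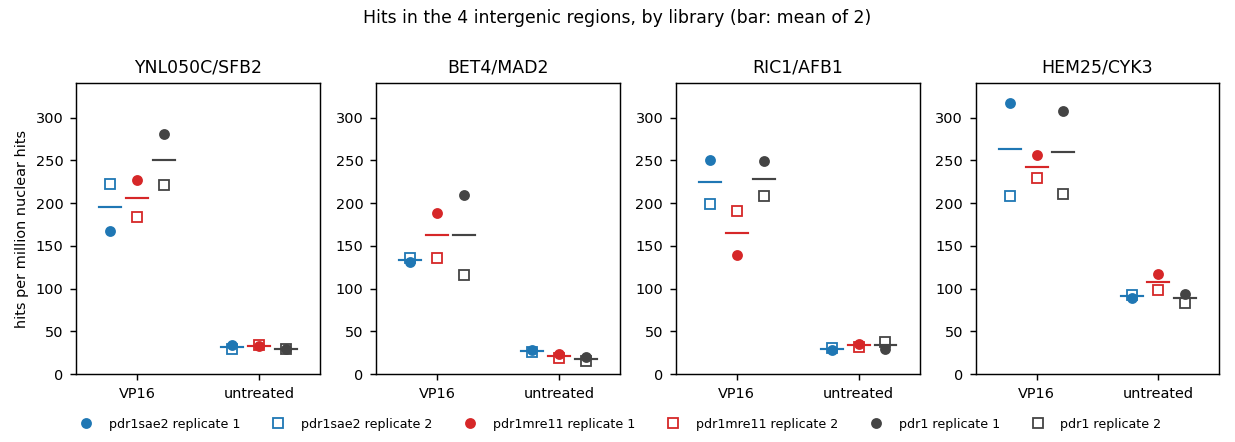
Hits in HpM (vertical axis) in each of the 4 intergenic regions, for VP16-treated (left) and untreated libraries (right). Colours stand for strains, filled and open symbols for replicates 1 and 2, and bars for the mean of 2 libraries. The lowest treated library lay above the highest untreated one in each region, from 116.4 against 28.2 at BET4/MAD2 to 207.9 against 116.9 at HEM25/CYK3. The regions were chosen on values of these libraries, so this is a description.

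The rise was narrow. Relative to the mean density of the library, the YNL050C/SFB2 region stood at 6.49 to 10.9 times the mean under VP16, against 1.12 to 1.32 times in untreated cells. BET4/MAD2 stood at 6.16 to 11.1 times against 0.85 to 1.49, RIC1/AFB1 at 5.17 to 9.29 times against 1.05 to 1.41, and HEM25/CYK3 at 2.48 to 3.78 times against 0.991 to 1.39. In untreated cells, therefore, all 4 regions were close to the density of the genome as a whole. The 2 kb on both sides stood at 0.672 to 1.27 times the library mean under VP16 and at 0.826 to 1.07 times in untreated cells. In single 100-bp windows the highest mean over treated libraries was 22.0 times the library mean at YNL050C/SFB2, 14.9 at BET4/MAD2, 22.0 at RIC1/AFB1 and 14.7 at HEM25/CYK3, and no window of the flanks exceeded 3.31. Region over flanks came to 5.92 to 15.3 under VP16 against 1.05 to 1.49 untreated at YNL050C/SFB2, 5.46 to 10.7 against 0.917 to 1.54 at BET4/MAD2, 7.31 to 12.1 against 1.11 to 1.35 at RIC1/AFB1, and 2.68 to 5.16 against 1.03 to 1.56 at HEM25/CYK3.

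**Figure D2:**
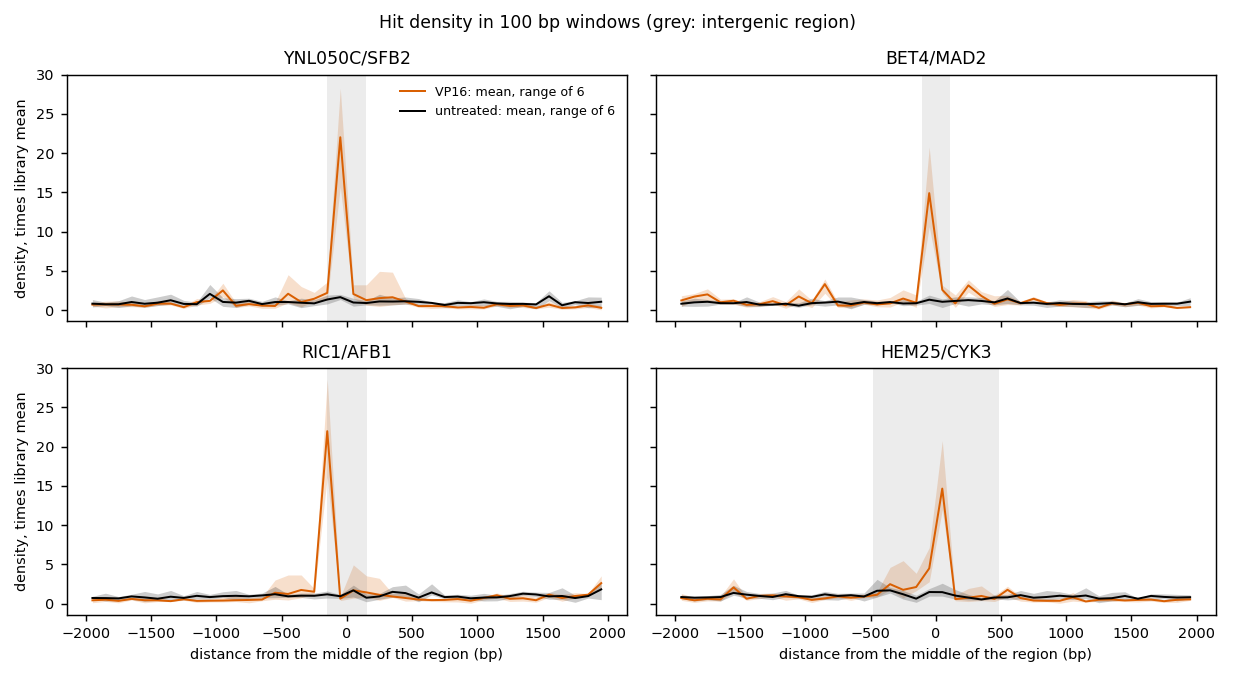
Hit density in 100-bp windows (vertical axis, times the mean density of the library) against the distance from the middle of each region in bp. Lines are means and bands the range of the 6 VP16-treated and the 6 untreated libraries, and grey marks the intergenic region. The highest treated mean of a window is 22.0 at YNL050C/SFB2, 14.9 at BET4/MAD2, 22.0 at RIC1/AFB1 and 14.7 at HEM25/CYK3, against 2.51, 3.31, 2.61 and 2.07 at most in the windows of the flanks.

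The reading frames beside the regions changed far less than the regions themselves. Per kb, YNL050C held 97.6 to 156.6 HpM under VP16 against 73.1 to 103.3 untreated, and SFB2 held 42.8 to 78.2 against 75.2 to 88.7. Log2 changes were 0.38 ± 0.11 for YNL050C, 0.35 ± 0.11 for BET4 and 0.25 ± 0.13 for MAD2, and −0.65 ± 0.10 for SFB2, −0.44 ± 0.10 for RIC1, −0.79 ± 0.16 for AFB1, −0.31 ± 0.11 for HEM25 and −0.52 ± 0.09 for CYK3. Among the 8 genes, AFB1 thus had the lowest value, next to a region that ranked 3 in the genome. Falls were common, as 33.3% of all 11297 regions fell past an adjusted p of 0.05 (edgeR). These changes are relative to the library total, and all 5 negative values turned positive when libraries were scaled by the spike-in of human DNA, which moved the median of all regions by 1.49 on the log2 scale. YNL050C and BET4 carry an intron directly behind a short first exon. The intron of YNL050C (534875 to 534965) stood at 1.68 to 3.83 times the library mean under VP16 against 0.619 to 1.97 times in untreated cells, and that of BET4 (387349 to 387435) at 0.315 to 2.22 against 0.651 to 1.03 times. The groups overlapped at both introns.

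Within each region a single site took the largest part of the hits. At YNL050C/SFB2, site 1 (Watson 535101, 119 bp before the start of YNL050C) held 87 and 300 hits in pdr1sae2, 283 and 308 in pdr1mre11 and 304 and 198 in pdr1 under VP16, against 10 and 3, 10 and 3, and 11 and 2 in untreated cells. The site made up 48.3% to 56.9% of the region's hits under VP16, against 8.57% to 14.3% in untreated libraries. Sites 2 (535057) and 3 (535053) lay 4 bp apart and held 18 to 122 and 30 to 89 hits per treated library, against 0 to 2 and 0 to 7 per untreated library. The 3 sites together took 75% to 84.0% of the region's hits under VP16.

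At BET4/MAD2, site 1 (387542) lay 104 bp from the BET4 and 112 bp from the MAD2 reading frame, close to the middle. It held 102 and 196 hits in pdr1sae2, 296 and 260 in pdr1mre11 and 304 and 113 in pdr1 under VP16, against 8 and 2, 11 and 4, and 6 and 5 in untreated cells. These were 60.1% to 72.3% of the region's hits under VP16 and 8% to 45.5% in untreated libraries, where the highest share rested on 5 of 11 hits. Site 2 (387613) held 8 to 34 hits per treated and 0 to 5 per untreated library, and site 3 (387538) 6 to 40 against 0 to 1.

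At RIC1/AFB1, site 1 (228604) lay 8 bp before the start codon of RIC1. It held 173 and 365 hits in pdr1sae2, 251 and 442 in pdr1mre11 and 424 and 264 in pdr1 under VP16, against 8 and 1, 12 and 2, and 2 and 1 in untreated cells. It took 64.3% to 78.8% of the region's hits under VP16, against 2.63% to 11% in untreated libraries. No other site came near it, as site 2 (228641) held 6 to 53 hits per treated library and 0 to 1 per untreated library.

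At HEM25/CYK3, site 1 (248132) lay 520 bp before the start of HEM25 and 446 bp before that of CYK3. It held 106 and 213 hits in pdr1sae2, 306 and 330 in pdr1mre11 and 352 and 153 in pdr1 under VP16, against 15 and 1, 40 and 4, and 14 and 3 in untreated cells. It took 31.1% to 52.4% of the region's hits under VP16 and 1.11% to 9.88% in untreated libraries. The share of the 3 listed sites was 34.6% to 58.0% under VP16, because the next sites were weak (4 to 31 hits at 248088 and 8 to 19 at 247704 per treated library).

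By mean HpM over the 6 treated libraries, the first sites ranked 1 (RIC1/AFB1, 154.0 HpM ± 30.2, SD), 3 (YNL050C/SFB2, 114.7 ± 20.2), 4 (HEM25/CYK3, 113.3 ± 26.5) and 11 (BET4/MAD2, 99.1 ± 25.6) among the 50947 sites with at least 8 hits in at least 2 treated libraries, whose median was 3.69 HpM. With the calibrated values the ranks were 1, 4, 3 and 10. Each first site was the strongest of its region in each of the 6 treated libraries. The first sites were picked by their mean HpM over these same libraries, in regions chosen on values of them. Their ranks and their recurrence are therefore a description. Outside the first site, density was still 3.06 to 7.71 times that of the flanks at YNL050C/SFB2 under VP16, against 0.947 to 1.36 in untreated libraries, and 1.51 to 3.93 against 0.500 to 1.37 at BET4/MAD2, 1.84 to 3.27 against 1.02 to 1.30 at RIC1/AFB1 and 1.47 to 3.56 against 0.979 to 1.40 at HEM25/CYK3.

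The number of sites with at least 8 hits followed depth as well as treatment. Treated libraries held 3 to 7 such sites at YNL050C/SFB2, 2 to 6 at BET4/MAD2, 1 to 4 at RIC1/AFB1 and 2 to 10 at HEM25/CYK3, against 0 to 1, 0 to 1, 0 to 2 and 0 to 7 in untreated libraries. When every library was thinned to the 685100 hits of the smallest one, treated libraries kept 3, 1 to 3, 1 to 2 and 1 to 4 sites, against 0 in untreated libraries at the first 3 regions and 0 to 2 at HEM25/CYK3.

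**Figure D3:**
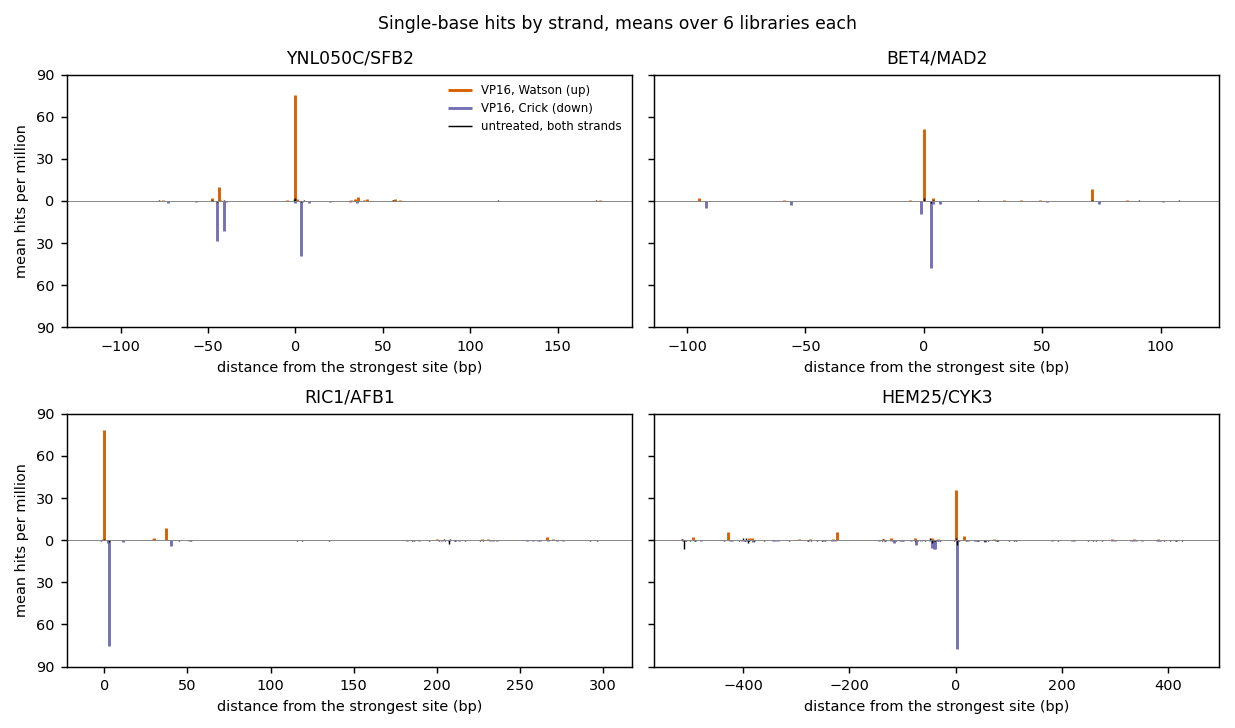
Mean HpM (vertical axis; Watson upwards, Crick downwards) at single bases against the distance from the strongest site in bp, as means over 6 VP16-treated and 6 untreated libraries. At BET4/MAD2 and RIC1/AFB1 the Watson and Crick lines of the first site are of like height (50.0% and 50.9% Watson), whereas at HEM25/CYK3 the Crick line is the longer one (33.7% Watson).

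The positions recurred across strains. Over the single-base hits of both strands, Pearson's r between treated libraries of different strains was 0.947 to 0.997 at YNL050C/SFB2, 0.872 to 0.993 at BET4/MAD2, 0.865 to 0.999 at RIC1/AFB1 and 0.874 to 0.991 at HEM25/CYK3. Between treated replicates of a strain it was 0.973 to 0.987, 0.806 to 0.970, 0.891 to 0.982 and 0.958 to 0.989 at the same regions. The 2 ranges overlapped at each region, so that strains shared the same strong positions. These correlations are carried by a few strong positions of regions chosen on values of these same libraries. Between untreated replicates r was 0.0421 to 0.689 over the 4 regions, at a depth of 11 to 405 hits per region.

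Strains were compared under VP16 to see whether loss of SAE2 or MRE11, and with it the removal of bound protein, changed the share of hits at these regions. None of the 4 regions passed the test in any of the 3 strain contrasts. At RIC1/AFB1 the log2 difference was −0.46 ± 0.17 for pdr1mre11 against pdr1 (edgeR's quasi-likelihood test, adjusted p = 0.71) and −0.41 ± 0.17 for pdr1mre11 against pdr1sae2 (edgeR, adjusted p = 0.32). At YNL050C/SFB2 it was −0.36 ± 0.17 for pdr1sae2 against pdr1 (edgeR, adjusted p = 0.998) and −0.29 ± 0.17 for pdr1mre11 against pdr1. At BET4/MAD2 the differences from pdr1 were −0.31 ± 0.21 in pdr1sae2 and −0.02 ± 0.20 in pdr1mre11, and at HEM25/CYK3 −0.03 ± 0.18 and −0.10 ± 0.18. Over all 11302 regions, edgeR called 0 (0%) for pdr1sae2 against pdr1, where 282 had an unadjusted p under 0.05 and DESeq2 called 0, and 1 (0.00885%) for pdr1mre11 against each of the other strains, the deleted MRE11 itself. With 2 libraries a group, differences of the size given here could not be told from replicate spread.

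The response to VP16 was also compared between strains. In HpM, VP16 over untreated was 6.18, 6.13 and 8.50 at YNL050C/SFB2 in pdr1sae2, pdr1mre11 and pdr1, 4.94, 7.46 and 8.91 at BET4/MAD2, 7.58, 4.85 and 6.78 at RIC1/AFB1, and 2.88, 2.25 and 2.92 at HEM25/CYK3. The value was lower in pdr1mre11 than in pdr1 at each region, while the place of pdr1sae2 varied. The interaction nearest to the threshold was that of BET4/MAD2 in pdr1sae2 (−0.82 ± 0.38, edgeR, adjusted p = 0.999), and the call was 0 (0%) of 11302 regions for both interactions, with 121 and 313 at an unadjusted p under 0.05 and 0 by DESeq2 for each. With the calibration factors the same ratios were 15.4, 29.2 and 14.3 at YNL050C/SFB2, 12.3, 35.4 and 14.9 at BET4/MAD2, 18.9, 23.0 and 11.4 at RIC1/AFB1, and 7.19, 10.7 and 4.89 at HEM25/CYK3. The calibrated order, with pdr1mre11 highest at each region, follows from the factors, of which 1 was deposited per group and listed for both replicates, so that no error can be given for it. On the same scale the regions' log2 differences from pdr1 under VP16 were 0.39 to 0.73 in pdr1sae2 and 1.36 to 1.81 in pdr1mre11, beside medians of 0.74 and 1.82 over all regions.

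The first sites gave a like picture. For pdr1mre11 against pdr1 their log2 differences were −0.90 ± 0.29 at RIC1/AFB1, −0.65 ± 0.27 at YNL050C/SFB2, −0.45 ± 0.29 at HEM25/CYK3 and −0.32 ± 0.31 at BET4/MAD2, with an adjusted p of 1.0 in each case (edgeR). For pdr1sae2 against pdr1 they lay between −0.15 ± 0.28 and 0.09 ± 0.31. All 4 first sites thus had a negative value in pdr1mre11 with TMM factors, none beyond the adjusted threshold. In HpM the strains overlapped at BET4/MAD2 (119.3 and 88.2 in pdr1mre11, 139.3 and 70.0 in pdr1). They also overlapped at HEM25/CYK3 (123.3 and 112.0, 161.3 and 94.7). Both pdr1mre11 libraries were lower at RIC1/AFB1 (101.2 and 150.0, 194.3 and 163.5) and YNL050C/SFB2 (114.1 and 104.5, 139.3 and 122.6). On the calibrated scale given above, the regions that hold these sites were higher in pdr1mre11. Over 50947 sites edgeR called 0 (0%) for pdr1sae2 against pdr1 (979 at an unadjusted p under 0.05, DESeq2 0) and 3 (0.00589%), all inside MRE11, for pdr1mre11 against each of the other strains. A block for replicate number gave more site calls for pdr1mre11, as counted in the closing section on processing.

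The balance of the strands was tested in the treated libraries, with library as a block. It asks whether both ends of a site were recovered equally. At BET4/MAD2 site 1 the Watson share was 50.0% of 1271 summed hits (log2 Watson over Crick 0.00 ± 0.21, edgeR, adjusted p = 0.994), and at RIC1/AFB1 site 1 it was 50.9% of 1919 (0.12 ± 0.18, adjusted p = 0.60). At YNL050C/SFB2 site 1 the Watson strand held more (64.7% of 1480, 0.94 ± 0.19, adjusted p = 4.8e-06), in each of the 6 libraries (58.7% to 73.6%). At HEM25/CYK3 site 1 the Crick strand held more (33.7% Watson of 1460, −1.21 ± 0.19, adjusted p = 8.5e-09), again in each library (14.2% to 42.4%).

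The neighbouring sites were more one-sided. Crick hits prevailed at YNL050C/SFB2 site 3 (7.09% Watson, −3.64 ± 0.31) and site 2 (32.4%, −1.15 ± 0.26), at BET4/MAD2 site 3 (1.61%, −5.47 ± 0.59) and at HEM25/CYK3 site 2 (17.5%, −2.19 ± 0.44). Watson hits prevailed at BET4/MAD2 site 2 (82.0%, 2.13 ± 0.38), RIC1/AFB1 site 2 (68.7%, 1.14 ± 0.34) and HEM25/CYK3 site 3 (95.1%, 4.01 ± 0.57). All of these passed an adjusted p of 0.05 in edgeR. In the 4 regions 19 of 25 tested sites were called unequal (76.0%), against 50.8% of the 50947 sites of the genome. Of these 25 sites 17 held more HpM than the median site, and the part of depth in that share was not tested.

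**Figure D4:**
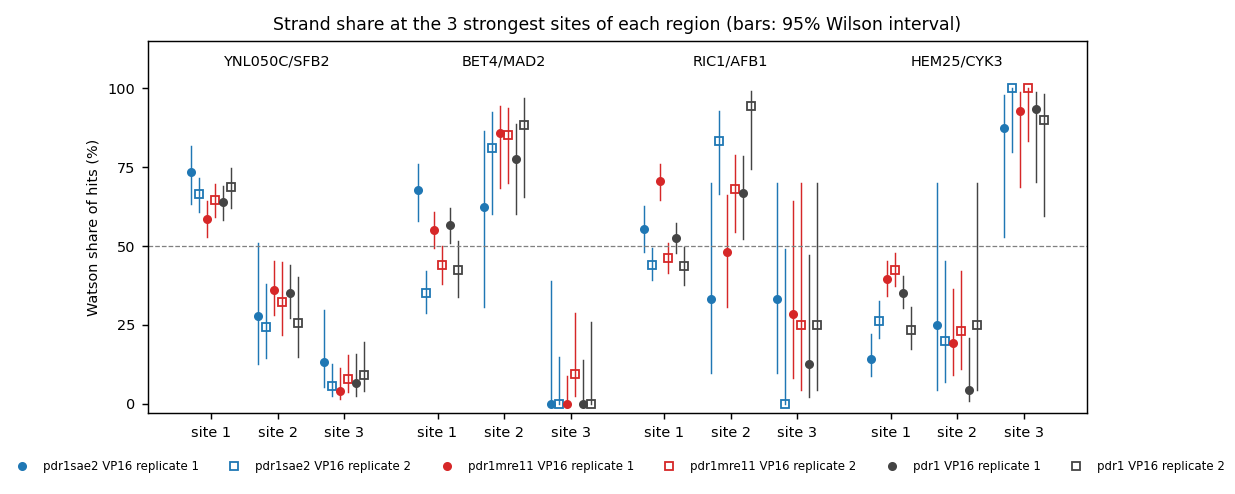
Watson share of the hits in percent (vertical axis) at the 3 strongest sites of each region in the 6 VP16-treated libraries, with 95% Wilson intervals as bars, which cover counting error only. The dashed line marks 50%. The first sites of BET4/MAD2 (50.0% over all libraries) and RIC1/AFB1 (50.9%) scatter around the line, and BET4/MAD2 site 3 (1.61%) lies at the bottom.

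The direction of the imbalance went with the bases beside the bonds shown in the sequences above. Of 10 tested sites in the regions with C before the Crick bond only (printed as G at the end of the capitals), all 10 were called, each with more Crick hits. Of 6 with C before the Watson bond only, 5 were called, each with more Watson hits, and the sixth had more Watson hits too. Of 7 with C on both sides, 4 were called, 3 to the Watson and 1 to the Crick strand, and of 2 with neither, 0 were called (1 at an unadjusted p under 0.05). Over the genome, 8575 of 14096 sites with C before the Crick bond only were called to the Crick strand and 273 to the Watson strand, and 8415 of 13758 with C before the Watson bond only were called to the Watson strand and 238 to the Crick strand. Sites with C on both sides were called less often there (33.3% of 19696, against 62.9% with C before the Watson bond only and 62.8% with C before the Crick bond only). Of 3397 genome sites with neither, 54.0% were called, 930 to the Watson and 904 to the Crick strand.

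Replicates did not always give the same share. At BET4/MAD2 site 1 the Watson share in replicates 1 and 2 was 67.6% and 35.2% in pdr1sae2, 55.1% and 43.8% in pdr1mre11 and 56.6% and 42.5% in pdr1. At RIC1/AFB1 site 1 it was 55.5% and 44.1%, 70.5% and 46.2%, and 52.6% and 43.6% in the same strains. The 2 sites called balanced over all libraries were therefore higher in replicate 1 in each strain, and the 95% Wilson intervals of pdr1sae2 at BET4/MAD2 and of pdr1mre11 at RIC1/AFB1 did not overlap. At RIC1/AFB1 site 2 replicate 1 was the lower one in each strain. Its Watson share was 33.3% of 6 hits in pdr1sae2, 48.1% of 27 in pdr1mre11 and 66.7% of 45 in pdr1. In replicate 2 the shares were 83.3%, 67.9% and 94.4%, so that the Watson excess at this site was not seen in every library.

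The base before the cleaved bond was then compared over all hits of the regions. C stood there in 68.2% to 82.1% of the hits of the 4 regions under VP16, against 19.1% to 26.3% in untreated libraries. The shares did not overlap, and the means over strains differed by 54.2 percentage points (within-group SD 4.52). As VP16 chose these regions, this is a description. In the flanks the share was 39.0% to 62.3% under VP16, against 19.6% to 22.9% in untreated libraries, and the difference between regions and flanks was 20.9 points larger under VP16 (within-group SD 5.07). Without the 12 listed sites, which were picked for their hits, and with the flanks left whole, it was −3.13 points, and with each hit position counted once it was −6.50 points. By region, the C share under VP16 was 78.9% to 85.8% at YNL050C/SFB2, 84.0% to 92.3% at BET4/MAD2, 77.3% to 92.6% at RIC1/AFB1 and 46.9% to 64.9% at HEM25/CYK3, against 15% to 34.3%, 24.0% to 54.5%, 23.3% to 30.8% and 12.2% to 24.6% in untreated libraries. HEM25/CYK3 was close to its own flanks in this respect (44.7% to 62.0% under VP16).

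**Figure D5:**
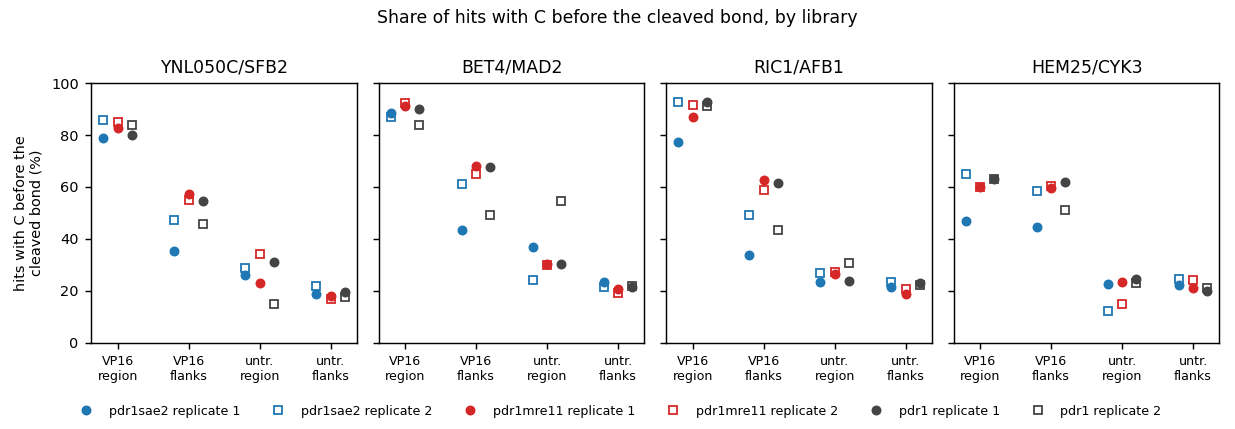
Share of hits with C before the cleaved bond in percent (vertical axis), in each region and in its 2-kb flanks, for VP16-treated and untreated libraries (colours for strains, filled and open symbols for replicates 1 and 2). At BET4/MAD2 the treated region held 84.0% to 92.3% and its treated flanks 43.2% to 67.9%, while at HEM25/CYK3 region and flanks lay close together.

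Sites with the full pattern, C before both bonds (CNNNNG, the same on either strand), took 48.3% to 56.9% of the hits at YNL050C/SFB2 under VP16, 71.3% to 80.9% at BET4/MAD2 and 67.7% to 80.4% at RIC1/AFB1, but 3.81% to 8.92% at HEM25/CYK3, against 9.65% to 20.0%, 12% to 45.5%, 3.85% to 16.4% and 0 to 2.87% in untreated libraries. In the flanks the pattern took 6.59% to 29.7% under VP16. The first sites of YNL050C/SFB2, BET4/MAD2 and RIC1/AFB1, which hold the pattern, alone took 48.3% to 56.9%, 60.1% to 72.3% and 64.3% to 78.8%. The shares of the pattern there thus rest largely on sites picked for their hits, and they are a description. The letters themselves were not rare. They matched 5 times at YNL050C/SFB2 (1.68 per 100 bp), 7 times at BET4/MAD2 (3.21), 9 times at RIC1/AFB1 (2.89) and 26 times at HEM25/CYK3 (2.69), against a median of 2.72 over all intergenic regions, and 2146 of 2151 intergenic regions of 200 to 400 bp (99.8%) held at least 1 match. GC content was 27.5% at YNL050C/SFB2, 31.7% at BET4/MAD2, 33.4% at RIC1/AFB1 and 33.5% at HEM25/CYK3, against a median of 33.6%.

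Finally, the regions before the start codons of 33 genes listed as related in function to the 8 genes were examined. Of these regions 23 rose, 2 fell and 8 did not pass the test (edgeR, adjusted p under 0.05), with a median log2 change of 0.55. Among all intergenic regions that hold at least 1 start (divergent or tandem genes), 65.9% of 4174 rose and the median was 0.50, and over all regions the median was 0.00. The share of risers in the lists was thus near that of their kind of region. These calls are relative to the library total. With spike-in library sizes 32 of the 33 rose and 0 fell, with a median of 2.05.

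Of the 5 spindle checkpoint regions beside MAD2 in function, 4 rose. The region before MAD3, a partner of Mad2 in the checkpoint complex, came close to the 3 regions with the largest changes (2.46 ± 0.16), with 82 to 385 hits per treated and 14 to 79 per untreated library, and that before BUB3 rose by 1.12 ± 0.15. The region before MAD1, which recruits Mad2 to kinetochores, did not pass (0.24 ± 0.16). For haem synthesis, the pathway that HEM25 feeds, 7 of 8 rose, among them HEM15 (ferrochelatase, 1.13 ± 0.12) and HEM1 (the glycine-using first enzyme, 0.97 ± 0.13). For cytokinesis, 3 of 5 rose and the region before INN1, which works with Cyk3 in septum formation, fell (−1.35 ± 0.13, but 0.12 ± 0.27 and not called with the spike-in).

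Of the COPII coat genes 3 of 5 rose, with SFB3 (1.16 ± 0.11) and SEC24 (1.08 ± 0.10), the Sec24 family members besides SFB2, ahead of SEC23 (0.35 ± 0.12). In the Ypt6 cycle 2 of 3 rose, those of RGP1, the partner of Ric1 (0.72 ± 0.10), and of GYP6, which inactivates Ypt6 (1.22 ± 0.13). Of the genes listed as related to mating pheromones (MFA1, MFA2, STE2, STE3 and BAR1), 4 of 5 rose, with MFA2 (encoding a-factor, 1.01 ± 0.16) the highest. The region before STE3 did not pass (−0.22 ± 0.11). Of the 2 geranylgeranyl transferase regions, that of MRS6, the escort protein that presents Rab GTPases to the enzyme, fell (−0.45 ± 0.15, but rose by 1.04 ± 0.28 with the spike-in), and that of BET2, the beta subunit, did not pass (0.14 ± 0.15).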

How the data were processed

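The authors mapped paired-end reads with Bowtie2 to Cer3 extended at 2 loci on chromosome III, and the deposited maps give whole-number counts of hits for each base and strand without normalization. The authors removed rDNA, telomeric and retrotransposon sequence, and stretches of 100 or more bases without a hit in any library (4.45% of nuclear bases examined) were treated as masked. Chromosome III was not used here. The authors also deposited a calibration ratio per group, derived from human DNA added as a spike-in and listed alike for both replicates, so that p-values from calibrated counts would leave out its error. Reads carried no molecular identifiers, and Wilson intervals cover counting error only.

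The 4 regions and the gene lists were chosen with earlier results of these data known. Named were the 8 genes, the 3 sites of each region with the highest mean HpM under VP16, the next 3 regions by rank and the 3 most alike over the libraries. Hits per region (at least 50 unmasked bases) and per site (at least 8 hits in 2 treated libraries) were tested with edgeR 4.0.16 in R 4.3.3 (TMM, quasi-likelihood, Benjamini-Hochberg over all features, tested on simulated data), region fits over all 12 libraries and site fits over the 6 treated ones. Strand balance used Watson and Crick hits with library as a block. Permutation tests of the C share under VP16 are not printed, because that contrast chose the regions. DESeq2 1.42.0, library sizes, filters, a replicate block and leaving out libraries were tried as alternatives. Coordinates of genes and sequences are RefSeq R64. Replicates are biological per the labels, with no further detail used here. The labels name no batch shared by samples of the same replicate number, and the main fits did not pair them. Differences between replicates 1 and 2 correlated at −0.21 to 0.41 over regions, above 0.1 in 7 of 15 pairs of groups. Among the untreated groups they correlated at 0.32 to 0.41, and a shared batch was not tested.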

Additional observations from a re-analysis of the deposited data

How the results depend on the processing

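The log2 changes under VP16 stayed at 2.65 to 2.79 (YNL050C/SFB2), 2.53 to 2.82 (BET4/MAD2), 2.54 to 2.75 (RIC1/AFB1) and 1.25 to 1.43 (HEM25/CYK3) when any library was left out. With the spike-in, where the median of all regions moved by 1.49 (VP16), 0.74 (pdr1sae2 against pdr1), 1.82 (pdr1mre11 against pdr1), 1.08 (pdr1mre11 against pdr1sae2) and, for the interactions, 0.58 and 1.48, the counts of regions were 10813, 9049, 11196, 10500, 1303 and 10698 in the same order. SFB2 (0.84), RIC1 (1.03), AFB1 (0.75), HEM25 (1.18) and CYK3 (0.94) then turned positive, as did the regions YNL050C/SFB2, BET4/MAD2, RIC1/AFB1 and HEM25/CYK3 in pdr1sae2 (0.39, 0.44, 0.70, 0.73) and pdr1mre11 (1.54, 1.81, 1.36, 1.73) against pdr1, RIC1/AFB1 and HEM25/CYK3 in pdr1mre11 against pdr1sae2 (0.66, 1.00), and the interactions of YNL050C/SFB2 and HEM25/CYK3 in pdr1sae2 (0.10, 0.56) and of all 4 in pdr1mre11 (1.05, 1.26, 0.92, 1.13). At the first sites, total nuclear hits as library sizes, an alternative chosen after seeing the data that moved the median site by −0.24, 0.33 and 0.54, gave RIC1/AFB1 −0.18 and BET4/MAD2 −0.24 for pdr1sae2 against pdr1, and HEM25/CYK3 0.32, BET4/MAD2 0.23 and YNL050C/SFB2 0.069 for pdr1mre11 against pdr1sae2. HpM use that total already.

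With the replicate block, a pairing that the labels do not give, calls were 2, 2 and 1 regions (pdr1mre11 against pdr1, against pdr1sae2, and its interaction), and 128 and 13 sites. The log2 difference of BET4/MAD2 in pdr1mre11 then stood at 0.0043. DESeq2 called 1 and 1 sites in those site contrasts, and a minimum of 20 hits left 1 and 1, with 6449 of 11014 sites of unequal strands. BET4/MAD2 site 1 leaned to the Crick strand with TMM (−0.081) and the binomial test (−0.0023). The excess of C over the flanks was −6.50 with each position counted once and −3.13 without the listed sites.

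Leaving out a library gave 0 to 1 regions (pdr1sae2 against pdr1), 1 to 9 (pdr1mre11 against pdr1sae2, 9 without pdr1sae2 VP16 replicate 2), 0 to 1 sites for either pdr1mre11 contrast and 21447 to 24868 sites of unequal strands. The following changed sign, none of them called. For pdr1sae2 against pdr1, BET4/MAD2 ranged over −0.65 to 0.18, RIC1/AFB1 over −0.20 to 0.089 and HEM25/CYK3 over −0.32 to 0.27, with interactions of −0.073 to 0.31 at RIC1/AFB1 and −0.33 to 0.26 at HEM25/CYK3. For pdr1mre11 against pdr1, BET4/MAD2 ranged over −0.37 to 0.47 (interaction −0.59 to 0.24) and HEM25/CYK3 over −0.34 to 0.20, and for pdr1mre11 against pdr1sae2, YNL050C/SFB2 over −0.12 to 0.33 and HEM25/CYK3 over −0.35 to 0.22. First sites in pdr1sae2 against pdr1 ranged over −0.28 to 0.38 (RIC1/AFB1), −0.52 to 0.21 (HEM25/CYK3), −0.33 to 0.46 (BET4/MAD2) and −0.38 to 0.093 (YNL050C/SFB2), and in pdr1mre11 against pdr1sae2 over −0.65 to 0.079 (HEM25/CYK3) and −0.77 to 0.018 (BET4/MAD2). Log2 Watson over Crick ranged over −0.097 to 0.22 at RIC1/AFB1 site 1 and −0.18 to 0.18 at BET4/MAD2 site 1. The causes were not tested.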

Other observations

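A few positions in the regions were higher without VP16. The Crick position 247620, 8 bp before the start of HEM25 and with G before the bond, held 0, 3, 2, 2, 1 and 2 hits in the treated libraries (pdr1sae2, pdr1mre11 and pdr1, replicates 1 and 2 of each), against 18, 2, 49, 8, 11 and 2 in the untreated ones, or 0.741 against 6.36 HpM on average. The Crick position 228811 in RIC1/AFB1, with T before the bond, held 1, 2, 4, 1, 0 and 1 hits under VP16 and 4, 0, 21, 3, 4 and 3 in untreated cells. The untreated pdr1mre11 replicate 1, the most deeply sequenced library, held the most hits at both.

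Neighbouring tested sites of the 4 regions lay exactly 4 bp apart in 5 of 21 gaps, against 4.32% of 50932 gaps in the genome. The pairs include sites 3 and 2 of YNL050C/SFB2 and sites 3 and 1 of BET4/MAD2. In these pairs the site with the lower coordinate was the more Crick-sided one (7.09% against 32.4% Watson, and 1.61% against 50.0%), but at the pair of 387542 and 387546 in BET4/MAD2 it was not (50.0% against 45.1%). These patterns were noticed in regions already chosen for their hits and were not tested further.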
